A study of Mus musculus with 18 samples.

Results

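N-(1-naphthyl)ethylenediamine dihydrochloride, called NEDD here, is an aromatic amine salt best known as the dye-coupling reagent of nitrite assays. The comparison described here sets the lungs of mice fed NEDD against those of mice fed plain rodent chow. Its members are 6 of the 18 arrays of the series, chosen by their labels alone: 3 arrays of NEDD-fed mice (animals 12, 14 and 15) and 3 of feed controls (animals 27, 28 and 29). All mice were female B6C3F1, a hybrid strain used in rodent cancer bioassays, and dosing started when they were 5 weeks old. NEDD was mixed into the feed at 2000 ppm and eaten 7 days a week for 13 weeks, and the right lung lobe was taken at 18 weeks of age. The controls shared strain, sex, age and schedule with them. The series labels NEDD as negative for lung tumours. Each array held RNA of 1 animal, labelled with biotin and hybridised to the Affymetrix mouse genome array named in the labels, so that 3 animals stand for each group. The series asks whether lung transcripts after this short dosing foretell tumours in long bioassays. Of 18193 genes named by a probe set with a single symbol, 13434 had a signal above the 40th percentile of their array on at least 3 of the 18 arrays and were tested.

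Planar aromatic compounds can bind the aryl hydrocarbon receptor (AhR), a cytosolic transcription factor that enters the nucleus with its partner ARNT and binds the sequence core GCGTG. Its best known target, Cyp1a1, encodes a cytochrome P450 that oxidises polycyclic aromatic substrates. Electrophiles act through another sensor, NRF2, which drives glutathione transferases, quinone reductase and enzymes of glutathione synthesis. In the airways, ciliated cells carry bundles of motile cilia that move mucus. Their axonemes need dynein motors, radial spokes and a central pair, and are assembled by intraflagellar transport. Alveolar macrophages clear particles from the air spaces with scavenger receptors such as MARCO.

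No pair of the 18 arrays was identical among 153 pairs, and correlations among the 6 arrays lay between 0.983 and 0.993. Markers of the main lung cells were strong. Scgb1a1 of club cells and Sftpc of alveolar type 2 cells lay among the highest signals, and the ciliated cell gene Foxj1 at percentile 81.5, whereas Rag1 of thymus lay at percentile 3.82 and Myh4 of skeletal muscle at 9.66. RNA quality differed between the groups. The Bioanalyzer result in the labels is "Excellent" for all 3 NEDD samples and "Good" for all 3 feed controls. The RNA integrity number was 9.1 for NEDD 14 and NEDD 15 and is not given for NEDD 12, against 8.3, 8.7 and 8.9 in the feed controls. The difference between the 3' and 5' probe sets of beta-actin, which grows as RNA is degraded, was 0.49, 0.35 and 0.53 log2 units on NEDD 12, 14 and 15 and 0.58, 0.62 and 0.73 on feed control 27, 28 and 29. The groups did not overlap in it. The optical measures of the RNA varied within and between the groups: the optical density ratio was 2.66, 2.12 and 2.58 for NEDD 12, 14 and 15 and 2.22, 2.22 and 1.80 for feed control 27, 28 and 29, and the optical density of the nucleic acid was 0.194, 0.544 and 0.121 against 0.401, 0.479 and 2.03.

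The response to NEDD was small. In limma, 3 of 13434 genes (0.0223%) passed an adjusted p of 0.05: Cyp1a1 and Ces1g rose and Marco fell. The difference of the group means had a median of -0.02 log2 units over all genes, with the 5th and 95th percentiles at -0.33 and 0.27. It was negative for 7276 genes (54.2%) and positive for 6158 (45.8%). Only 6 genes differed by more than 1 log2 unit, the called Cyp1a1 and Marco together with Eml2, Aif1l and Dbp on the higher side and the histone gene H3f3b on the lower (-1.06 ± 0.46, with overlapping arrays). At an unadjusted p under 0.05 there were 565 higher genes (4.21%) and 703 lower genes (5.23%). The 3 NEDD arrays all lay above the 3 control arrays for 971 genes (7.23%) and all below them for 1622 (12.1%), which is the background for each count of separated arrays below. A permutation test of 3 arrays against 3 cannot give a two-sided p under 0.1, so the p-values are those of the model fitted over all genes.

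Cyp1a1 gave the largest difference. Its signal was 4.93, 5.51 and 7.12 on feed control 27, 28 and 29 and 8.83, 9.18 and 9.25 on NEDD 12, 14 and 15. The groups did not overlap, and the controls spread over a wider range than the treated animals, with feed control 29 the highest of them. Some control signals were dim: feed control 27 lay below the 40th percentile of its array (5.04) and feed control 28 below its array median (5.75). The rise was 3.23 ± 0.44 log2 units (SE, n = 3 per group), or 9.40-fold, with an adjusted p of 0.0118 in limma. Fitted on the compared arrays alone, the adjusted p was 0.0691. It was 0.157 without feed control 28, 0.0506 without NEDD 14 and 0.136 without NEDD 15, with differences of 3.06 to 3.19 in those fits. The SE and p-values of the main fit use a spread pooled over the 18 arrays of 6 groups and moderated over genes. They do not measure the spread of the compared animals alone, and the number of arrays limits their precision. The bases before the start of Cyp1a1 are shown with their match to GCGTG in capitals (RefSeq, GRCm38.p6, chr9:57697363-57697612, plus strand, 250 bases ending at the base before the start):

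Cyp1a1: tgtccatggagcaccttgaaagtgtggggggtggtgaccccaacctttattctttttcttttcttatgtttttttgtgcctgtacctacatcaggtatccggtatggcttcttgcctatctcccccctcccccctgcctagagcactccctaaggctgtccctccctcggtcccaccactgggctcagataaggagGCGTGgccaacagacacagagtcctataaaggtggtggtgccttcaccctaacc

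The core GCGTG, searched on both strands, occurred once in this promoter, with its first base at -54 from the start. It occurs in 32.4% of all 32851 RefSeq promoters of the table (250 bases before to 50 after each start) and in 47.6% of those of the tested genes, so that the core is common. Whether AhR binds at the match before Cyp1a1 was not tested, and bases farther upstream were not searched.

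No other gene of the AhR battery passed the test. Of 8 AhR targets on the array 6 were tested, with a median of 0.07 log2 units that was -0.02 without feed control 27 and 0.20 without feed control 28. Cyp1b1, a related P450 whose promoter also holds 1 GCGTG, was 6.87, 7.52 and 7.01 in controls and 6.97, 7.09 and 7.45 with NEDD, a difference of 0.03 ± 0.21 with interleaved arrays. Tiparp, a PARP that represses AhR, differed by 0.10 ± 0.13, and Nfe2l2, which encodes NRF2, by 0.001 ± 0.11. Both overlapped between the groups, and the signs of these small differences turned under some alternatives. Aldh3a1, an aldehyde dehydrogenase, was 0.34 ± 0.21 log2 units below control with overlapping arrays. Nqo1, the quinone reductase shared by AhR and NRF2, was 6.33, 6.38 and 6.22 in controls and 6.61, 6.46 and 6.73 with NEDD. Its arrays were separated by a small gap, and the difference of 0.29 ± 0.19 did not pass the test (adjusted p = 0.614 in limma). The receptor gene Ahr itself was 0.30 ± 0.14 lower, with the groups overlapping, and its second probe set gave 0.09.

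Ces1g rose by less. It encodes a carboxylesterase that hydrolyses esters of drugs and lipids. Its signal was 5.48, 5.13 and 5.37 in the controls and 6.05, 5.98 and 6.21 with NEDD, without overlap. The rise was 0.76 ± 0.12 log2 units, or 1.69-fold, with an adjusted p of 0.0371 in limma. The adjusted p was 0.0852 on the compared arrays alone, 0.0643 on the feed groups alone, 0.0754 after median centring, 0.0804 with beta-actin 3' minus 5' as a covariate, 0.0471 without feed control 27, and between 0.0744 and 0.452 without any other of the 6 arrays (feed control 28 or 29, NEDD 12, 14 or 15). Of 13 carboxylesterases on the array 9 were tested, 5 of them with positive differences, and their median was 0.16. Ces1f lay 0.33 ± 0.18 higher with separated arrays and Ces4a 0.24 ± 0.13 higher, also separated, whereas Ces2b lay 0.30 ± 0.13 lower with separated arrays. The other 5 overlapped between the groups, with Ces1h and Ces5a at 0.25 and 0.16 and Ces1d, Ces1e and Ces2g at -0.22, -0.18 and -0.13. The Ces1 genes are close copies in a cluster, and cross-hybridisation between them was not tested.

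The NRF2 battery was mixed. None of 26 tested targets was called, 14 were higher and 12 lower, with a median of 0.03. Gstp1, a glutathione S-transferase, was 11.93, 11.83 and 11.81 in controls and 12.19, 12.00 and 12.17 with NEDD, a difference of 0.26 ± 0.09 that did not pass the test (adjusted p = 0.462 in limma). Gsta3, a transferase of another class, lay on the other side at -0.23 ± 0.10, also with separated arrays. Osgin1, a stress-induced growth inhibitor, was 0.32 ± 0.16 higher, and Gclc, the catalytic subunit of glutathione synthesis, 0.28 ± 0.17 lower, both with overlap.

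Marco fell. It encodes a scavenger receptor of alveolar macrophages that binds bacteria and inhaled particles. Its signal was 7.22, 7.76 and 7.39 in the controls and 6.73, 6.23 and 6.28 with NEDD. The groups did not overlap, and NEDD 12 lay nearest to the controls. The difference was -1.04 ± 0.16 log2 units, a 2.06-fold lower signal, with an adjusted p of 0.0292 in limma. The adjusted p was 0.0852 on the compared arrays alone, 0.0895 on the feed groups alone, 0.0851 with beta-actin 3' minus 5' as a covariate, 0.339 without feed control 28, 0.14 without feed control 29, 0.076 without NEDD 14 and 0.354 without NEDD 15. The second Marco probe set gave -0.79 ± 0.19, and taking the mean of both gave -0.92 with an adjusted p of 0.136 in limma. All 3 NEDD arrays lay below the other 15 arrays of the series in the probe set used. In whole-lung RNA, fewer cells of a type and less RNA per cell cannot be told apart.

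Marco was the 1 called gene of the alveolar macrophage list. Of 36 genes on the array 35 were tested, 23 of them with negative differences, and the median was -0.08. The arrays were separated downward for 6 (17.1%) and upward for 2. The median was -0.02 with the beta-actin covariate, with 17 positive and 18 negative, and -0.02 after quantile normalization. It was -0.03 without feed control 28, -0.05 without feed control 29, NEDD 12 or NEDD 14, and -0.13 without NEDD 15. Siglecf, a lectin that marks alveolar macrophages, was 7.59, 7.85 and 7.75 in controls and 7.16, 7.17 and 7.51 with NEDD, a difference of -0.45 ± 0.19. Il18, a cytokine of the interleukin-1 family, differed by -0.39 ± 0.12, again with separated arrays. Fabp1 (-0.56 ± 0.26) and Chil3 (-0.33 ± 0.19) overlapped between the groups, and Bhlhe40, a transcriptional repressor, lay 0.38 ± 0.13 higher. Mrc1 and Itgax, surface proteins of macrophages, had means of 9.35 and 8.63 in the controls and 9.43 and 8.67 with NEDD. Apart from Marco, none of these passed the adjusted test.

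**Figure D1:**
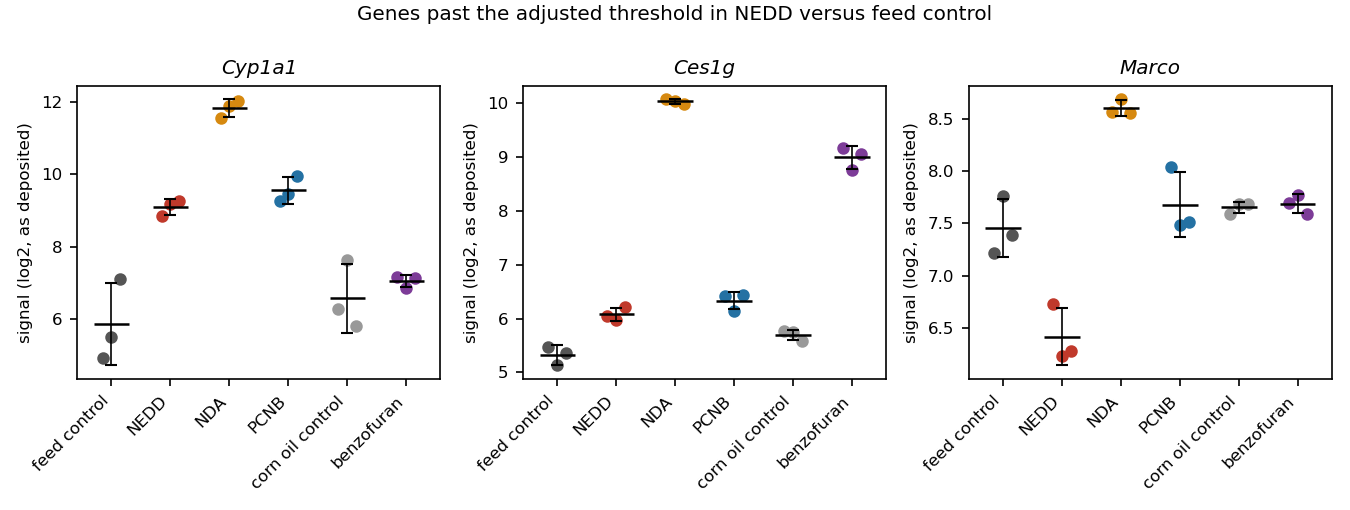
Signals of Cyp1a1, Ces1g and Marco (log2, vertical axes) on all 18 arrays by group; points are arrays, horizontal lines are group means and error bars are SD over 3 animals. The NEDD arrays lie between 8.83 and 9.25 for Cyp1a1, between 5.98 and 6.21 for Ces1g and between 6.23 and 6.73 for Marco, apart from the feed control arrays in each panel.

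Genes of the motile cilium lay lower as a group, although no single member passed the adjusted test. The 5 lists of cilium genes held 124 tested genes, of which 112 were negative and 12 positive, with a median of -0.23 log2 units beside -0.02 over all genes. For 60 of them (48.4%) all NEDD arrays lay below all control arrays, beside 12.1% of all genes, and for 0 all lay above. At an unadjusted p under 0.05 there were 42 lower and 0 higher members, and limma's adjusted test called 0. With array weights it called 23 lower and 0 higher, among 521 of all genes. Without the filter on low signals 117 of 130 were negative. By probe set, 140 of the 163 that passed the filter were negative, beside 12966 of 23980 over all genes. The genes were centred on their own mean over the 18 arrays and averaged per array. This mean was -0.25, -0.24 and -0.21 on NEDD 12, 14 and 15 and 0.03, 0.06 and -0.08 on feed control 27, 28 and 29. The NEDD arrays were the 3 lowest of the 18, followed by corn oil control 22 and PCNB 20, both at -0.18. PCNB against the same feed controls also had negative medians on all 5 lists, at -0.14 for ciliated cell markers, -0.08 for dynein arms, -0.20 for radial spokes and the central pair, -0.08 for intraflagellar transport and -0.09 for the BBSome and ciliary gate. The undosed corn oil controls had negative medians on the same 5 lists too, at -0.07, -0.04, -0.04, -0.03 and -0.07 in that order.

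**Figure D2:**
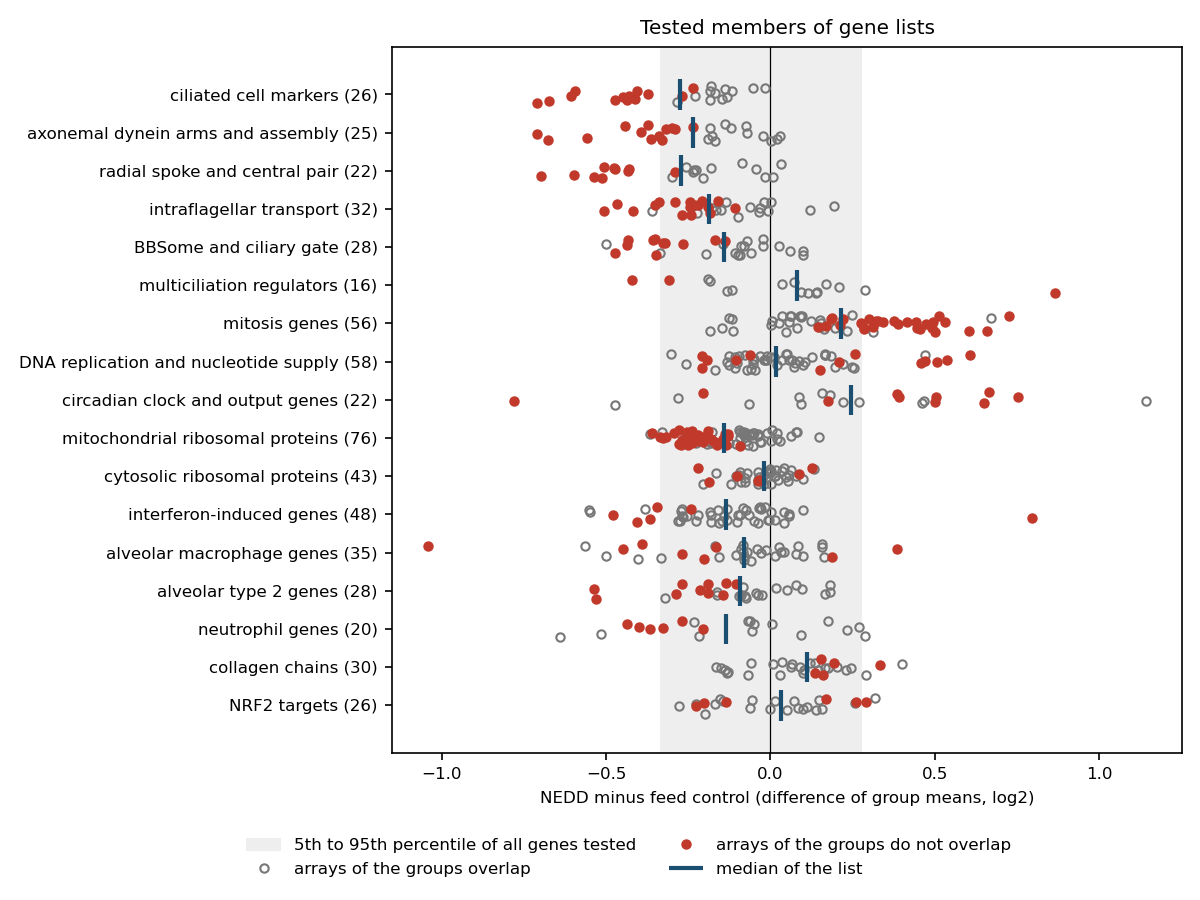
Difference of NEDD and feed control means (log2, horizontal axis) for each tested gene of 17 lists, with the number of tested genes in brackets. Filled points have arrays that do not overlap between the groups, bars are list medians and the grey band runs from -0.33 to 0.27, the 5th to 95th percentile of all genes. The medians of the cilium lists lie between -0.28 and -0.14 and that of the mitosis genes at 0.22.

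All of 26 ciliated cell markers were negative, with a median of -0.28 and 14 separated (53.8%). Cfap43, a cilia and flagella protein, was 7.53, 7.42 and 7.35 in the controls and 6.79, 6.64 and 7.04 with NEDD, a difference of -0.61 ± 0.16, or -0.31 as the mean with its second probe set above the filter. Ccdc39, a ruler of axonemal repeats, differed by -0.59 ± 0.16, and Ccdc113, a coiled-coil protein of the axoneme, by -0.67 ± 0.22. Each had separated arrays and an adjusted p of 0.323 or more in limma.

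Dynein genes gave a like picture. Of 25 genes for dynein arms and their assembly 22 were negative, with a median of -0.24 and 13 separated downward (52%). Dnaic2, an intermediate chain of the outer dynein arm, was 6.96, 7.37 and 6.70 in the controls and 6.53, 6.24 and 6.13 with NEDD, a difference of -0.71 ± 0.21. Its second, dimmer probe set gave 0.22, and the mean of both -0.25. Dnaaf4, which helps to preassemble dynein arms in the cytoplasm, was 5.77, 5.43 and 5.73 against 5.11, 4.83 and 4.97. The dynein heavy chain genes Dnah6 (-0.33 ± 0.09) and Dnah12 (-0.56 ± 0.15) also had separated arrays.

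Of 22 radial spoke and central pair genes 20 were negative, with a median of -0.27 and 10 separated downward (45.5%). Spag16, a central pair protein, was 7.74, 7.61 and 7.27 in the controls and 6.90, 7.04 and 6.58 with NEDD, a difference of -0.70 ± 0.18, or -0.39 as the mean with its second probe set above the filter. Ak7, an axonemal adenylate kinase, was 9.27, 9.19 and 9.05 against 8.59, 8.70 and 8.80, a difference of -0.47 ± 0.11 with the smallest unadjusted p of the list (adjusted p = 0.323 in limma). Cfap69 (-0.60 ± 0.16) and the radial spoke head gene Rsph4a (-0.43 ± 0.13) lay on the same side without overlap.

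The lists for genes that build cilia in many cell types had medians nearer to 0. Intraflagellar transport had 29 of 32 negative, a median of -0.19 and 17 separated downward (53.1%). Ift74, a core protein of the transport train, was 8.36, 8.56 and 8.31 in the controls and 7.81, 7.93 and 8.10 with NEDD, and Ttc30b, another component, differed by -0.51 ± 0.21. The BBSome and ciliary gate list had 24 of 28 negative, a median of -0.14 and 11 separated downward (39.3%). Ttc8 and Bbs5, both BBSome subunits, lay at -0.44 ± 0.14 and -0.43 ± 0.15, and Arl3, a small GTPase that releases cargo inside cilia, at -0.35 ± 0.12.

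**Figure D3:**
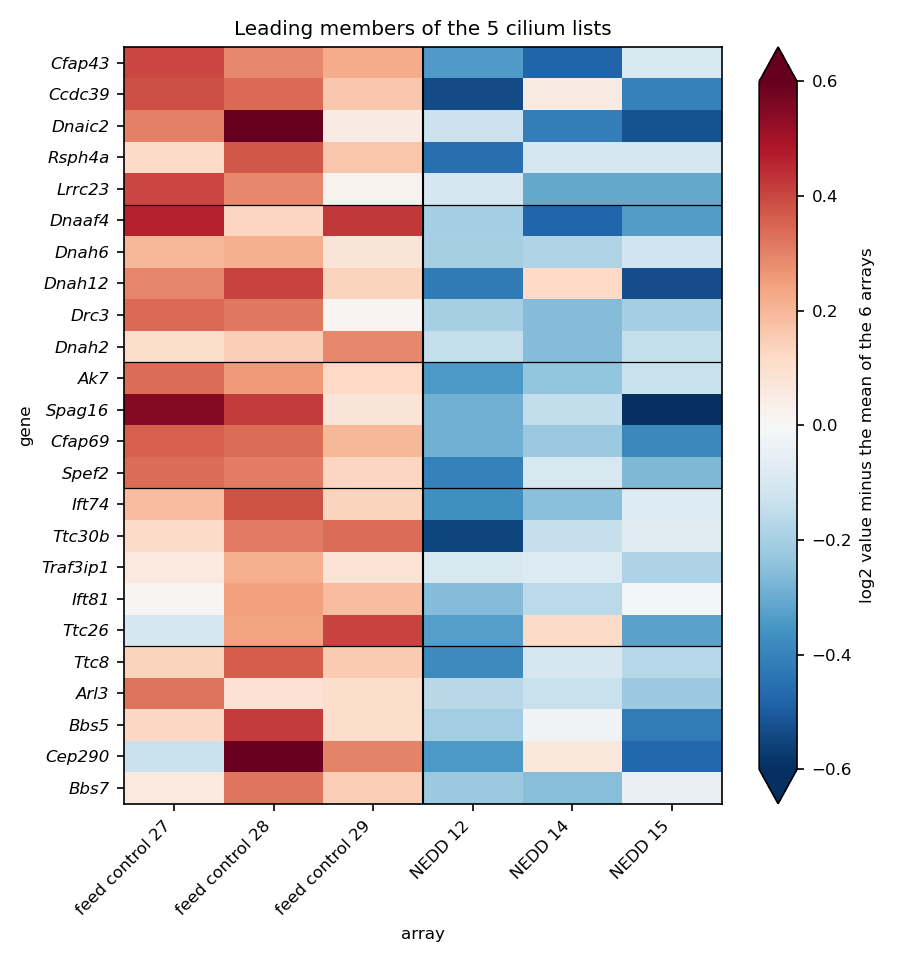
Signals of 24 cilium genes (rows) on the 6 arrays (columns), each minus the mean of the 6 (colour, log2). Rows are the genes of each list with the smallest p, so they show the extremes of the lists and not a typical member. The colour scale ends at 0.6 log2 units on both sides.

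The X-box bound by RFX factors, the regulators of cilium genes, is shown for the 6 cilium genes with the smallest p among those eligible for display. Matches without full flanks before the start, and genes of a chromosome kept out of the display, were passed over. Capitals mark the match, and the windows are from RefSeq, GRCm38.p6.
Spag16 (chr1:69826859-69826888, plus strand): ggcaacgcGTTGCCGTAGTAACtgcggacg
Dnaic2 (chr11:114727378-114727406, plus strand): cggccaggGTTGCTAGGCAACtggtaaac
Lrrc23 (chr6:124779871-124779899, minus strand): ttggcctcGTAACCTGGCAACtactgagc
Tctn2 (chr5:124598679-124598708, plus strand): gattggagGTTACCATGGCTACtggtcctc
Dynlrb2 (chr8:116504956-116504984, plus strand): cctgcctgGTTGCCTAGCAACgggggaag
Ift57 (chr16:49699226-49699254, plus strand): gccctgcgGTTGCCTGGTAACggtgggga
An X-box occurred on either strand in 22 of 124 promoters of the cilium genes (17.7%), in 1.53% of all promoters and in 1.69% of those of tested genes. The 20 genes with a match had a median of -0.16 and 8 separated downward, and the 89 without one a median of -0.22 and 44 separated downward.

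The regulators of ciliated cells had no clear direction. Of 16 tested, 10 were positive, and the median was 0.08, with a range of -0.04 to 0.14 over 20 alternatives and a negative value in 2 of them, the 60th percentile filter and the fit without NEDD 15. Foxj1, the master regulator of motile cilia, was 8.58, 8.56 and 7.91 in the controls and 8.67, 7.97 and 8.05 with NEDD, which overlap (-0.12 ± 0.19, with a sign that turned under some alternatives). Rfx3 (-0.31 ± 0.13) and Myb (-0.42 ± 0.15), both transcription factors of the ciliated lineage, lay lower with separated arrays. E2f5, which works in centriole multiplication, was 8.82, 8.49 and 8.41 against 9.81, 9.13 and 9.37, a difference of 0.87 ± 0.24 (adjusted p = 0.345 in limma). Its other 2 probe sets gave -0.03 and -0.20, so the direction rests on 1 probe set, and the mean of the 3 gave 0.21.

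RNA integrity and the cilium list mean both differed between these groups without overlap. With beta-actin 3' minus 5' as a covariate the median of the 124 genes was -0.11 with 100 negative, beside a median of 0.02 over all genes. By list it was -0.18 for the ciliated cell markers, all 26 of which were negative in that fit, -0.21 for dynein arms, -0.17 for radial spokes and the central pair, -0.08 for intraflagellar transport and -0.08 for the BBSome and ciliary gate. The part of RNA integrity in the difference was not tested beyond this covariate. Here and for the other lists and genes, the covariate was fitted over all 18 arrays. They include benzofuran 10, which had the largest actin value (0.91) and a cilium mean of 0.55. No covariate fit left this array out, so how far the adjusted values rest on it was not tested. Arrays of other groups with actin values no higher than the 0.53 of NEDD 15 had cilium means on both sides of 0. NDA arrays had 0.33 to 0.43 with cilium means of 0.05 to 0.10. Benzofuran 6 had 0.40 with 0.20 and benzofuran 8 had 0.35 with 0.20. PCNB 20 had 0.35 with -0.18, corn oil control 22 had 0.51 with -0.18 and corn oil control 25 had 0.42 with -0.05. The median for the 124 genes was negative in all 20 alternatives, from -0.27 to -0.11, those without 1 of the 6 arrays included.

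**Figure D4:**
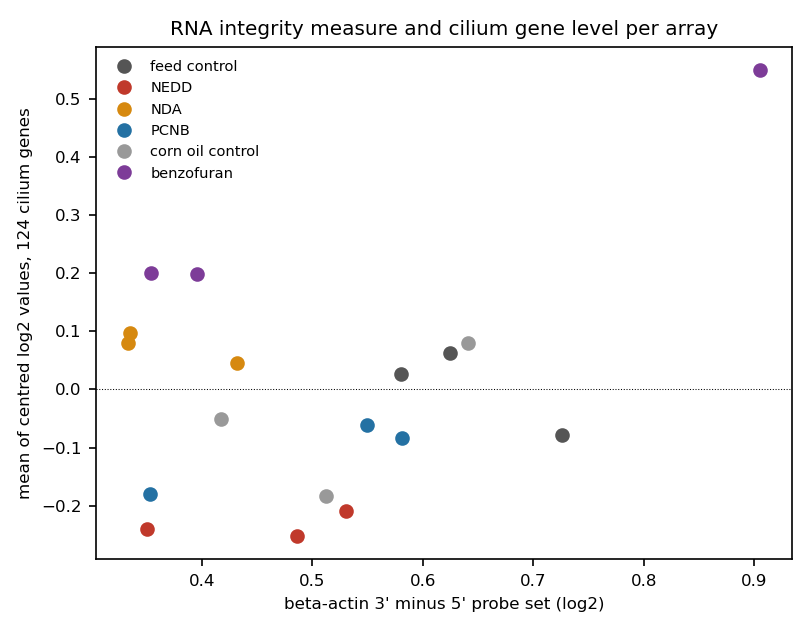
Mean of centred log2 values of 124 cilium genes (vertical axis) against the 3' minus 5' difference of beta-actin (horizontal axis, log2) on each of 18 arrays. NEDD arrays lie between -0.25 and -0.21 on the vertical axis and between 0.35 and 0.53 on the horizontal axis, and benzofuran 10 stands apart at 0.55 and 0.91.

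Mitosis genes lay higher. Of 80 on the array 56 were tested, 51 of them positive, with a median of 0.22 beside -0.02 over all genes. For 29 (51.8%) all NEDD arrays lay above all control arrays, beside 7.23% of all genes, and for 0 below. At an unadjusted p under 0.05 there were 19 higher and 0 lower, and the adjusted test in limma called 0. A gene could pass the filter on low signals through 3 arrays alone, so the list was also read without it: 73 of 80 were then positive, with a median of 0.19. By probe set 71 of 82 were positive.

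Racgap1, a regulator of cytokinesis, had the smallest p of the list. It was 5.70, 5.96 and 5.84 in the controls and 6.36, 6.26 and 6.38 with NEDD, a difference of 0.50 ± 0.10 (adjusted p = 0.278 in limma). Pbk, a mitotic kinase, was 5.22, 5.65 and 5.21 against 6.16, 6.09 and 6.01, and Cep55, which works at the midbody, differed by 0.66 ± 0.21. Mki67, the antigen of the Ki-67 proliferation stain, was 6.52, 7.24 and 7.00 against 7.39, 7.42 and 7.55. All of these were separated, Mki67 by the gap between feed control 28 and NEDD 12. Aspm (0.49 ± 0.19), Cenpe (0.49 ± 0.19), Ccna2 (0.44 ± 0.18) and Cdk1 (0.51 ± 0.21), genes of spindle, kinetochore and mitotic entry, lay on the same side.

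Promoters of mitotic genes often hold a cell cycle homology element and CCAAT boxes. The element TTTGAA, searched on both strands, is shown in capitals for the 4 with the smallest p among those eligible for display (RefSeq, GRCm38.p6). Matches without full flanks before the start, and genes of a chromosome kept out of the display, were again passed over. In Cep55 the match is on the other strand and reads TTCAAA here.
Cep55 (chr19:38054996-38055025, plus strand): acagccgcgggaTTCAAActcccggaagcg
Mki67 (chr7:135716460-135716489, minus strand): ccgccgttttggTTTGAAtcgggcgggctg
Cdk1 (chr10:69352966-69352995, minus strand): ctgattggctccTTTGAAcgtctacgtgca
Espl1 (chr15:102296254-102296283, plus strand): tcactagggataTTTGAAaggaggtgctgg
It occurred in 38 of 51 mitosis gene promoters (74.5%), beside 17.9% of all promoters and 12.1% of those of tested genes. CCAAT occurred in 40 of 51 (78.4%), beside 37.4% of all promoters. All 35 tested mitosis genes with TTTGAA in a promoter were positive, with a median of 0.23, as were 10 of the 12 without it, with a median of 0.12. GCGTG occurred in 58.8% of them, beside 47.6% of the promoters of tested genes.

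Feed control arrays were among the lowest of the series for these genes. The mitosis list mean was -0.32, -0.13 and -0.21 on feed control 27, 28 and 29 and -0.002, -0.001 and 0.05 on NEDD 12, 14 and 15. Corn oil controls, which received no chemical, lay 0.33 above feed control by the list median, NDA 0.27 and PCNB 0.08, all against the same 3 feed control arrays. PCNB 16 and PCNB 20, at -0.24 and -0.19, lay within the range of the feed controls. Genes of DNA replication and nucleotide supply lay on both sides of 0, with 30 of 58 positive, a median of 0.02, and 8 higher and 0 lower at an unadjusted p under 0.05. Mcm10, a loading factor of replication forks, was 5.05, 5.08 and 5.09 in the controls and 5.30, 5.66 and 5.79 with NEDD. Its other 2 probe sets, both dim, gave 0.14 and 0.13 against 0.51 for the one used. Fen1, a flap endonuclease, was 0.54 ± 0.14 higher and Rrm2, a ribonucleotide reductase subunit, 0.61 ± 0.23 higher, both separated.

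**Figure D5:**
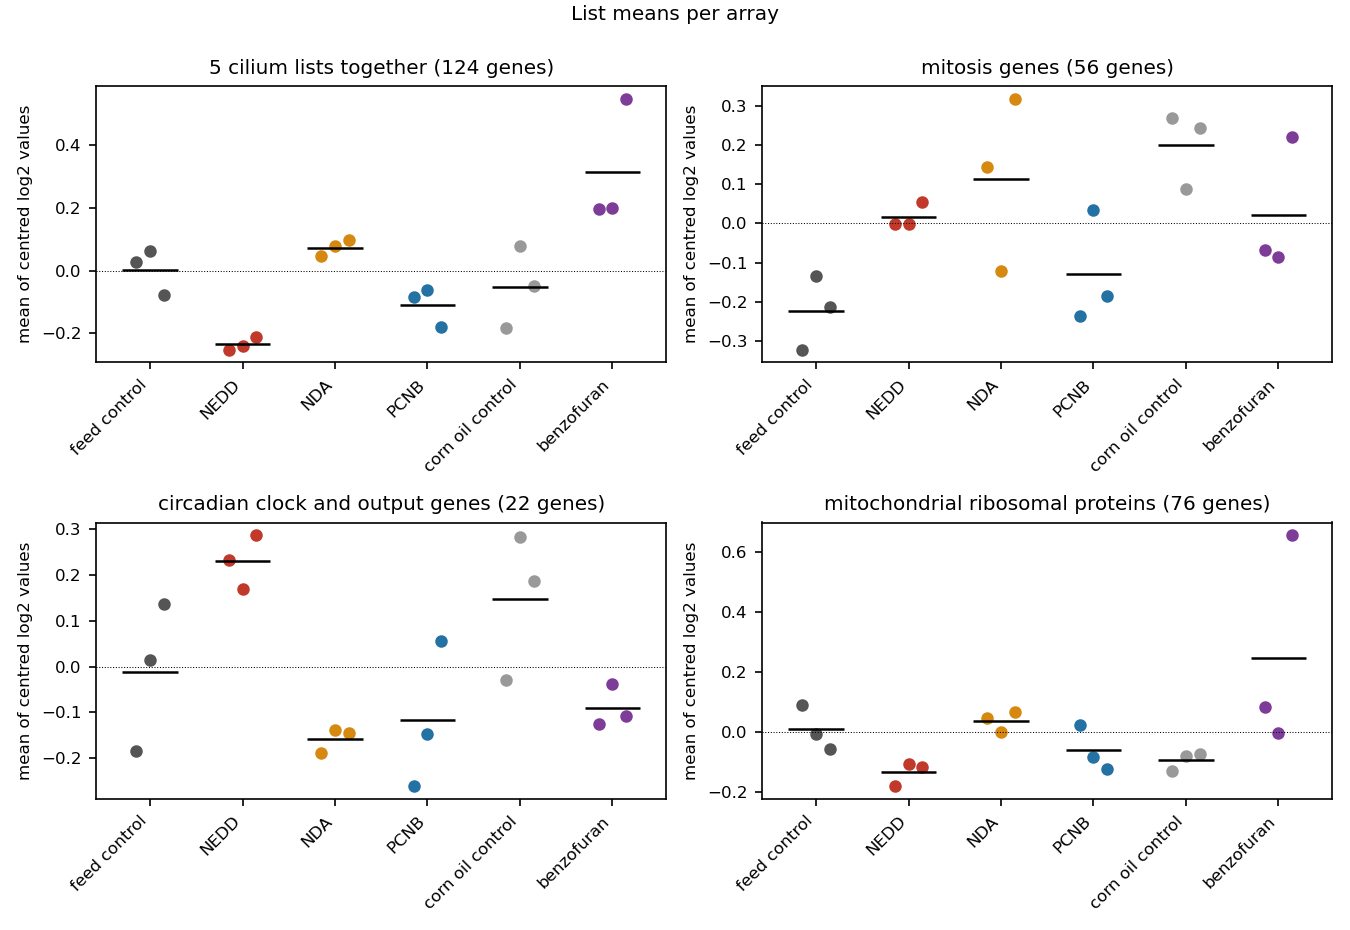
Mean of centred log2 values (vertical axes) of 4 gene lists on each of 18 arrays by group; points are arrays and lines are group means. NEDD arrays are the lowest for the cilium lists and feed control arrays lie at -0.32 to -0.13 for the mitosis genes, while benzofuran 10 stands apart at 0.66 for mitochondrial ribosomal proteins.

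Clock genes differed in both directions. The core activator Arntl was 8.14, 8.09 and 8.06 in the controls and 7.37, 7.29 and 7.28 with NEDD, a difference of -0.78 ± 0.32 with a wide gap between the groups. Per2, a repressor in the clock loop, was 6.46, 6.70 and 7.15 against 7.68, 7.19 and 7.69, and its 3 probe sets gave 0.75, 0.73 and 0.68. The second, dimmer Arntl probe set gave -0.04. Output genes driven by the clock lay higher: Hlf by 0.65 ± 0.24, Tef by 0.50 ± 0.22 and Dbp by 1.14 ± 0.67, of which Dbp overlapped. Nr1d1, which encodes REV-ERB alpha and represses Arntl, was 7.98, 8.46 and 8.38 against 8.95, 8.70 and 9.18, and Wee1, a clock-controlled kinase, was 0.39 ± 0.15 higher. Clock, the partner of Arntl, lay 0.28 ± 0.16 lower with overlap. Of 22 genes tested, 17 were positive, the median was 0.25, and 8 were separated upward (36.4%) and 2 downward, with 0 called in limma and 5 higher and 1 lower at an unadjusted p under 0.05. The labels give no hour of tissue collection, so treatment and hour cannot be told apart. Feed control 29 lay nearest to NEDD on this list, with a mean of 0.14 against -0.18 and 0.01 on feed control 27 and 28 and 0.17 to 0.29 on the NEDD arrays.

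Mitochondrial ribosomal proteins were lower by a small, even step. Of 76 tested, 67 were negative, with a median of -0.14, 32 separated downward (42.1%) and 0 upward. Mrpl39 of the large subunit was 10.62, 10.71 and 10.59 in the controls and 10.14, 10.37 and 10.44 with NEDD. Mrps5 of the small subunit was -0.29 ± 0.12 and Mrpl47 -0.33 ± 0.13, the latter with overlap, and the means over their probe sets were -0.09 and -0.13. With beta-actin 3' minus 5' as a covariate the median was 0.004, with 39 positive and 37 negative. That covariate was fitted over all 18 arrays. Benzofuran 10, with the largest actin value of the series (0.91), had a list mean of 0.66, against 0.08 and -0.004 on benzofuran 6 and 8. The covariate was not fitted without benzofuran 10, so how far the value of 0.004 rests on that array was not tested. Cytosolic ribosomal proteins had a median of -0.02, and respiratory chain subunits -0.07 with 64 of 89 negative. RNA splicing factors had 88 of 123 negative, a median of -0.10 and 31 separated downward (25.2%). Srsf2, which sets exon choice, was 10.47, 10.50 and 10.52 in the controls and 10.08, 10.11 and 10.00 with NEDD, a difference of -0.43 ± 0.13. Its other 3 probe sets gave 0.05, -0.37 and 0.11, and their mean with it -0.16.

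Families were also formed by symbol alone. Among 105 families of at least 12 tested genes, the Cfap genes of cilia and flagella had the lowest median, at -0.30 with 21 of 23 negative. The Ift genes came next at -0.18 with all 14 negative, followed by the Trmt transfer RNA methyltransferases at -0.17, the Mrps genes at -0.16 and the Hspa chaperones at -0.14. The highest medians were those of the Prss serine proteases (0.16, all 14 positive), the Col genes (0.12, 27 of 33 positive), the Sox transcription factors (0.10), the keratins (0.08) and the Gpr receptors (0.07). None of these families held a called gene. In the list of 30 collagen chains 23 were positive and 5 separated upward, led by Col12a1 at 0.33 ± 0.14, and the median was 0.11. With the beta-actin covariate the median was 0.02, with 18 positive and 12 negative, the same as the 0.02 over all genes, and without NEDD 15 it was 0.06.

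Several genes outside the lists had small unadjusted p-values on the lower side. Dzank1 was 6.43, 6.70 and 6.34 in the controls and 5.64, 5.93 and 5.49 with NEDD, a difference of -0.80 ± 0.15 (adjusted p = 0.211 in limma, the nearest miss on that side). Cabcoco1 (-0.87 ± 0.21), Ccdc96 (-0.71 ± 0.17), Iqca (-0.58 ± 0.12) and Cfap65 (-0.51 ± 0.12) had separated arrays. Cfap65 is also a member of the Cfap family described above. Whether the genes of this paragraph are part of the cilium shift was not tested. Mlf1 was 8.41, 8.39 and 8.15 against 7.45, 7.65 and 7.53. Other separated genes on this side were Clu, a secreted chaperone, at -0.38 ± 0.09 with 11.06 to 11.10 in the controls and 10.68 to 10.72 with NEDD, Rab27b, a GTPase of secretory vesicles, at -0.42 ± 0.10, Tmem184c at -0.48 ± 0.10 and Ahcyl2 at -0.37 ± 0.09. The mean over probe sets above the filter was -0.34 for Iqca, -0.23 for Clu and -0.15 for Ahcyl2. Larger differences with more spread were seen for Slfn4, a schlafen gene of myeloid cells (-0.92 ± 0.37), Afp, the fetal plasma protein (-0.84 ± 0.37), and the amylase gene Amy1 (-0.82 ± 0.22). Over the alternatives Afp ranged from -0.91 to -0.26 and Mlf1 from -0.86 to -0.43. Slfn4 ranged from -1.10 to -0.72 and Amy1 from -0.90 to -0.70.

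On the higher side the leading genes were of varied function. Aif1l, a relative of an actin-binding macrophage protein, was 7.21, 6.88 and 6.79 in the controls and 8.32, 7.67 and 8.10 with NEDD, a difference of 1.07 ± 0.27. Pik3cd, a kinase subunit of leukocytes, was 8.20, 7.69 and 7.58 against 9.21, 8.43 and 8.46, and Sema3f, a guidance cue, 9.06, 8.65 and 8.80 against 10.21, 9.31 and 9.45. NEDD 12 was the highest NEDD array and feed control 27 the highest control in all 3, as in Pnmt (0.70 ± 0.15), Tfeb (0.52 ± 0.12), Rassf1 (0.45 ± 0.10) and E2f5. Eml2 was 5.56, 5.39 and 5.21 against 6.74, 5.66 and 7.01, with NEDD 14 close to the controls. Klf2, a flow-sensing factor of endothelium, differed by 0.77 ± 0.21, Zfp128 by 0.51 ± 0.11 and Tnfrsf11a, the RANK receptor, by 0.51 ± 0.12. Cd3e of T cells was 7.31, 7.28 and 7.25 against 7.75, 7.59 and 7.72, while the T and NK cell list as a whole had a median of -0.02 over 29 genes. Other probe sets of these genes gave smaller values, and the mean over those above the filter was 0.63 for Aif1l, 0.27 for Pik3cd, 0.39 for Sema3f, 0.34 for Pnmt and 0.22 for Rassf1. None of these genes passed the adjusted test.

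Stress genes lay on both sides of 0. Ddit4, an inhibitor of mTORC1 induced by stress and glucocorticoids, was 7.27, 7.33 and 7.21 in the controls and 8.63, 7.44 and 8.66 with NEDD, so that NEDD 14 lay just above the highest control and NEDD 12 and 15 far above it. The difference was 0.97 ± 0.24 (adjusted p = 0.323 in limma), and it was the 1 gene called when NEDD 14 was left out. Bbc3, a death-promoting BCL2 family member, lay 0.40 ± 0.12 higher, Sesn2, a sestrin, 0.35 ± 0.13 and Trib3, a pseudokinase of the amino acid response, 0.28 ± 0.13. All 3 were separated. The p53 target list had 18 of 33 positive and a median of 0.01. In it 4 genes were separated upward and 3 downward, and the lowest lay at -0.33. The unfolded protein and amino acid response list had 24 of 46 positive and a median of 0.02. Of these 46, 8 were separated upward and 3 downward, and the lowest lay at -0.41.

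Erythroid genes had 19 of 28 positive and 9 negative, from -0.20 to 0.86, with a median of 0.05. The arrays were separated upward for 4 (14.3%) and downward for 1 (3.57%), beside 7.23% and 12.1% of all genes. Alas2, the first enzyme of haem synthesis in red cell precursors, was 10.80, 10.41 and 10.29 in the controls and 11.72, 11.01 and 11.34 with NEDD, and Fech, the last, was 0.63 ± 0.20 higher. Slc4a1, the anion exchanger of red cells, was 0.81 ± 0.50 higher with overlap, and 0.37 higher without NEDD 12. The part of blood left in the lobes was not tested.

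In the other immune and epithelial lists no gene was called. Interferon-induced genes had 40 of 48 negative and a median of -0.14, which was -0.05 with 31 negative without NEDD 12 and -0.09 after quantile normalization. Among them Cmpk2 (-0.48 ± 0.16), Ifih1 (-0.34 ± 0.13) and Ifit1 (-0.37 ± 0.15) were separated downward. Rsad2, which encodes viperin, lay on the other side at 8.92, 8.51 and 8.56 in the controls and 9.72, 9.29 and 9.38 with NEDD. Neutrophil genes had a median of -0.14, which was -0.06 without feed control 29, -0.07 without NEDD 14, -0.22 without feed control 27, -0.06 without the filter on low signals and -0.25 with a 60th percentile filter. The arrays were separated downward for 6 of 20 (30%), among them S100a8 (-0.44 ± 0.25) and Hdc (-0.37 ± 0.13), beside 12.1% of all genes. Of the 20 neutrophil genes 14 were negative and 6 positive, up to 0.29. The neutrophil marker Cxcr2 had a mean of 5.36 in the controls and 5.36 with NEDD. Klrd1, a receptor of NK cells, was -0.52 ± 0.23. Alveolar type 2 genes had 21 of 28 negative, a median of -0.09 and 10 separated downward (35.7%), with the alarmin Il33 (-0.53 ± 0.15) and Egfl6 (-0.54 ± 0.19) the lowest. Surfactant protein genes Sftpc and Sftpb had means of 14.6 and 13.0 in the controls and 14.6 and 13.2 with NEDD. Alveolar type 1 genes had 15 of 21 positive and a median of 0.09.

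The called genes were set against the other fed chemicals. NDA (1,5-naphthalenediamine), which bears its 2 amines on the naphthalene ring itself, was fed at the same 2000 ppm. NEDD and NDA differed in 285 genes (2.12%), 32 higher and 253 lower with NEDD, by limma at an adjusted p under 0.05. NDA arrays read 11.53, 11.88 and 12.02 for Cyp1a1, and the difference of NEDD minus NDA was -2.73 (adjusted p = 0.00112 in limma). Ces1g read 9.99 to 10.07 with NDA, a difference of -3.95 (adjusted p = 5.48e-13 in limma). Marco read 8.56 to 8.69 with NDA, a difference of -2.19 (adjusted p = 1.15e-07 in limma), so that NDA arrays lay above and NEDD arrays below the feed controls. Of the 26 NRF2 targets 21 were called lower with NEDD than with NDA. Of the cilium lists, 6 of 26 ciliated cell markers, 3 of 25 dynein arm genes and 3 of 22 radial spoke and central pair genes were called lower. For intraflagellar transport it was 2 of 32 and for the BBSome and ciliary gate 0 of 28, beside 253 of all 13434 genes. In these lists 0 were called higher. PCNB (pentachloronitrobenzene) was fed at 8187 ppm, another level, and also carries the label negative. NEDD and PCNB differed in 1 gene (0.00744%), Marco, with -1.27 (adjusted p = 0.00436 in limma). Against the same feed controls, limma's adjusted test called 2 genes with PCNB, Ces1g and Cyp1a1, both higher. Cyp1a1 differed between NEDD and PCNB by -0.46 (adjusted p = 0.999 in limma) and Ces1g by -0.25. Neither result shows that the chemicals act alike.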

How the data were processed

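Per the labels, lung RNA of 18 mice, 1 per array and 3 per group, was hybridised to Affymetrix mouse arrays. The deposited values were used as they stand and are on a log2 scale, taken from their range of 2.48 to 14.78. How probe signals were summarised and normalized, and the log base, is not given in the sources used here. Of 45101 probe sets 34945 have 1 gene symbol, and the probe set with the highest mean stood for a gene. Genes above the 40th percentile of an array on at least 3 arrays were kept. Group means over all 18 arrays were fitted in R 4.3.3 by the linear models of limma 3.58.1 with moderated variances (12 residual degrees of freedom) and Benjamini-Hochberg adjustment over 13434 genes and a threshold of 0.05. The scripts were tested on simulated data.

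Gene lists and families carry no test, only counts and medians. Named genes are those called, the 12 separated genes per side with the smallest p, the 8 largest differences per side with an unadjusted p under 0.05, up to 5 leading members of each list, and all tested AhR targets and carboxylesterases. Gclc, Ccdc113, Foxj1, Ccna2, Mki67, Cdk1, Tef, Dbp, Nr1d1, Clock, Chil3, Trib3, S100a8, H3f3b, Tctn2, Dynlrb2, Ift57 and Espl1 were chosen outside this rule, after their values were seen, as were the cell markers. Members and lists were chosen with earlier results of these data known. Promoters came from RefSeq (GRCm38.p6; Python 3.11.15, pandas 2.3.3). Alternatives changed the arrays fitted, array weights, scaling, filter, probe set rule, eBayes settings and covariates, and left out each array.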

Additional observations from a re-analysis of the deposited data

Results flagged for a closer look

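Differences between treated groups that passed limma's adjusted test are listed here. NEDD minus NDA, both at 2000 ppm, was -3.95 ± 0.12 log2 units for Ces1g, -2.73 ± 0.44 for Cyp1a1 and -2.19 ± 0.16 for Marco. NEDD minus PCNB, at different feed levels, was -1.27 ± 0.16 for Marco. No sample group was large enough for the check on single outlying arrays.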

How the results depend on the processing

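The 3 calls of NEDD against feed control became 0 with the compared arrays alone in the fit, 1 with the feed groups alone, 1 with the actin covariate, 1 with every probe set tested on its own and 521 with array weights, and 0 to 3 without 1 array. The 285 of NEDD against NDA became 507, 539, 584 (without benzofuran 10), 625 (actin covariate), 500 (GAPDH covariate) and 1813 (array weights), the first pair being the compared arrays alone and the feed groups alone, and 168 to 248 without 1 array. The 1 of NEDD against PCNB became 0, 0 and 18 with the compared arrays alone, the feed groups alone and array weights, and 0 to 2 without 1 array. The sign turned for Tiparp (-0.042 to 0.18 without 1 array), Cyp1b1 (-0.15 with array weights, -0.032 with the mean of probe sets, -0.10 to 0.23 without 1 array), Nfe2l2 (-0.013 with median centring, -0.0045 with the GAPDH covariate, -0.015 to 0.020 without 1 array), Ces1e (0.024 with the actin covariate) and Foxj1 (0.036 with array weights, -0.34 to 0.016 without 1 array). In each case the cause was not tested. Over alternatives the list median stayed on its side of 0 for the mitosis genes (0.13 to 0.30) and the clock genes (0.22 to 0.35), and for mitochondrial ribosomal proteins in 19 of 20 (-0.17 to 0.004). No paired analysis was possible because the animal numbers differ between the groups. With 3 animals per group, differences of the size seen for single cilium or mitosis genes did not pass the adjusted test with equal array weights, which does not show that those genes were unchanged.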
